A study of Mus musculus with 16 samples.

Results

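The 9 genes described here are markers of Kupffer cells, the resident macrophages of the liver, and of macrophages in general: Clec4f, Cd5l, Vsig4, Timd4, Marco, Adgre1, Csf1r, Cd68 and Lyz2. They were chosen by name, and all 9 had a row among the 15544 genes of the liver table and passed the filter that left 12704 genes for testing. Whole livers of 16 female mice aged 27 weeks were profiled by bulk RNA sequencing, with 4 mice in each of 4 groups and 1 library per mouse. Controls on chow (Control_Chow) were Esr1fl/fl, in which the gene for oestrogen receptor alpha is floxed but intact. Mutants on chow (Mutant_Chow) were Esr1Nkx2-1Cre, in which a Cre under Nkx2-1 deletes the floxed gene from part of the hypothalamus. Controls and mutants on high-fat diet (Control_HFD and Mutant_HFD) had the same genotypes and were fed this diet for 17 weeks. The floxed allele was therefore present in every group, and the background of the mice was mixed. Nkx2-1 is also active outside the brain, in thyroid and lung, so the deletion is defined by where that promoter has been active and not by the liver. Other tissues of the study were not analysed here.

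Kupffer cells line the sinusoids of the liver, where they take up particles, dying cells and bacteria from portal blood, and they depend on signalling through the CSF1 receptor. In mice they settle the liver before birth and largely maintain themselves, and monocytes from blood can replace those that are lost. Their identity is maintained by transcription factors that include PU.1, a factor of all myeloid cells, MAF family members, and RBPJ acting below Notch in monocytes that take up residence. Clec4f, a galactose-binding lectin, is restricted to Kupffer cells in mice, and Timd4, a receptor for phosphatidylserine on dying cells, marks the long-lived resident ones. Vsig4 is a receptor for complement fragments, Cd5l a secreted protein that protects macrophages from apoptosis, and Marco a scavenger receptor for bacteria and particles. Adgre1 encodes the F4/80 antigen, Csf1r the receptor for the growth factors CSF1 and IL-34, Cd68 a lysosomal glycoprotein, and Lyz2 the lysozyme of macrophages, monocytes and neutrophils.

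None of the 9 markers passed an adjusted p of 0.05 in any comparison of genotype or diet. On chow, all 9 were higher in mutants than in controls by the fitted difference, with a median log2 fold change of 0.68 against 0.02 over all tested genes, but the groups overlapped for every marker. Of the 4 mutant livers on chow, the livers numbered 1 and 2 held the higher values of every marker but Marco, and the summed level of neutrophil genes was 2511 and 5532 in these livers against 4.46 to 131 in the other 14. On HFD, the 2 genotypes differed by a median log2 fold change of -0.08. From liver to liver the markers moved together, and Marco followed the others least.

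Promoter sequence is shown for 3 markers. Vsig4 followed the other markers most closely across the 16 livers, Cd5l was among the most abundant, and Marco followed the others least. Each line gives the 250 bases before the RefSeq start of the gene (GRCm38.p6), 5′ to 3′ on the strand of the gene. Capitals mark GAGGAA, the core bound by PU.1, and TGCTGA, a half-site bound by MAF factors, or their reverse complements TTCCTC and TCAGCA. The Vsig4 window is chrX:96293439-96293688 on the minus strand, the Cd5l window chr3:87357631-87357880 on the plus strand, and the Marco window chr1:120505025-120505274 on the minus strand.
Vsig4: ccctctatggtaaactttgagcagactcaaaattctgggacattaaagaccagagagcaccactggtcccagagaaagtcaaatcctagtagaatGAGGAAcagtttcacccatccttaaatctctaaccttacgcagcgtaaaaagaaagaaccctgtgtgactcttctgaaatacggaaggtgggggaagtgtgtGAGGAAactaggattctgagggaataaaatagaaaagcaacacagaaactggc
Cd5l: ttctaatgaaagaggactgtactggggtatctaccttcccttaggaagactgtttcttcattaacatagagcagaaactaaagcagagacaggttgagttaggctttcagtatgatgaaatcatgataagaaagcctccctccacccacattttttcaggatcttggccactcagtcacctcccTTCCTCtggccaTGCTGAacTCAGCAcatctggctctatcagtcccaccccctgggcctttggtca
Marco: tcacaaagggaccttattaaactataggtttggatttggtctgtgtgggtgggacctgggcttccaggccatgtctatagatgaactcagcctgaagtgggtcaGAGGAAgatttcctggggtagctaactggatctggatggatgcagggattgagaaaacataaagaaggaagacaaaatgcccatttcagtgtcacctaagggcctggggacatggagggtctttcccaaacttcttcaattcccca

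The Vsig4 window held GAGGAA 155 and 53 bases before the start, and the Marco window held it 146 bases before the start. The Cd5l window held GAGGAA on the opposite strand 66 bases before the start and TGCTGA 54 and, on the opposite strand, 46 bases before it. Searched on both strands, GAGGAA was present in the windows of 4 of the 7 markers with a RefSeq promoter entry (Cd5l, Cd68, Marco and Vsig4) and in 23.25% of the 32851 promoter windows of the same length. TGCTGA was present in 4 of 7 (Cd5l, Clec4f, Lyz2 and Timd4) and in 16.08% of all windows. The RBPJ motif GTGGGAA was in 0 of 7 marker windows and in 5.415% of all windows. The 3 motifs do not contain each other, and a match is a description of letters. Marco, the marker that varied least like the rest, and Vsig4, which varied most like the rest, thus both carried the PU.1 core. Adgre1 and Csf1r had no entry that was used.

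Values are size-factor-adjusted TPM, a share of the library per unit of transcript length, so they can be compared between genes as well as between livers. Averaged over the 16 libraries, the markers ranked Clec4f (117), Cd5l (99.2), Lyz2 (84.2), Vsig4 (41.0), Csf1r (30.4), Cd68 (15.3), Adgre1 (12.7), Timd4 (9.72) and Marco (7.79). By mean level this put Clec4f at percentile 92.3 and Marco at percentile 42.5 of the tested genes. Of the 8 pairs of neighbours in this order, 3 overlapped in all 4 groups (Clec4f with Cd5l, Cd68 with Adgre1, and Timd4 with Marco), and the other 5 had ranges that did not meet in Mutant_HFD. The defining markers of the cell type were thus present in every library. In a whole liver, fewer macrophages and less of a transcript per macrophage cannot be told apart. The numbers in the library titles fell into a lower and a higher series within each diet, whose meaning the labels do not state. In HFD the lower series held Control_HFD 1 to 3 and Mutant_HFD 1, and the higher series held Control_HFD 4 and Mutant_HFD 2 to 4. On chow the lower series held Control_Chow 1 and 2 and Mutant_Chow 1. With the series as a term, 25.2% of the tested genes passed the adjusted threshold between the HFD series and 0% between the chow series, and 0 of the 9 markers passed in either.

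In the sentences that follow, values are in size-factor-adjusted TPM and in the order of the replicate numbers, which only name the libraries. Clec4f on chow was 52.4, 65.1, 89.0 and 132 in controls and 192, 169, 80.8 and 121 in mutants. On HFD, Clec4f was 125, 183, 149.8 and 101 in controls and 126, 84.9, 94.2 and 110.4 in mutants. Only Mutant_Chow 1 and 2 were above every control on chow, only Control_HFD 2 and 3 were above every mutant on HFD, and the groups overlapped in both diets. Group means ± SD (n = 4) were 84.6 ± 35.0 for Control_Chow, 141 ± 49.9 for Mutant_Chow, 139.6 ± 34.9 for Control_HFD and 104 ± 18.2 for Mutant_HFD.

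Cd5l on chow was 34.9, 58.4, 93.7 and 144 in controls and 167, 216, 63.3 and 90.4 in mutants. On HFD, Cd5l was 91.8, 134, 86.3 and 80.8 in controls and 113, 64.9, 60.3 and 88.4 in mutants. As for Clec4f, Mutant_Chow 1 and 2 exceeded every control on chow. In HFD, Mutant_HFD 2 and 3 lay below every control. Vsig4 on chow was 12.4, 29.7, 37.3 and 51.9 in controls and 65.5, 107, 29.5 and 33.4 in mutants. On HFD, Vsig4 was 28.9, 44.5, 33.9 and 37.0 in controls and 35.6, 34.3, 31.9 and 43.1 in mutants, so every mutant lay within the control range.

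Timd4 on chow was 4.15, 7.53, 10.5 and 15.2 in controls and 15.97, 23.6, 6.79 and 10.7 in mutants. On HFD, Timd4 was 7.10, 8.50, 6.08 and 9.98 in controls and 8.54, 6.96, 6.43 and 7.52 in mutants. Its 8 HFD values fell inside the range of the chow controls. Marco on chow was 2.56, 4.54, 5.22 and 23.9 in controls and 8.02, 7.82, 2.82 and 15.0 in mutants. On HFD, Marco was 7.66, 8.48, 6.70 and 3.44 in controls and 19.5, 1.14, 2.30 and 5.68 in mutants. Marco was the most variable marker, with 20.9-fold between its lowest and highest library, and a single library (Control_Chow 4 and Mutant_HFD 1) stood far above the others of its group.

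Adgre1 on chow was 5.08, 9.30, 14.3 and 20.0 in controls and 19.9, 25.9, 7.67 and 12.6 in mutants. On HFD, Adgre1 was 7.68, 12.8, 9.59 and 13.3 in controls and 10.3, 10.6, 10.4 and 13.6 in mutants. Only Mutant_Chow 2 exceeded the highest control on chow. Csf1r on chow was 10.3, 21.9, 33.2 and 39.8 in controls and 55.0, 72.4, 21.2 and 24.8 in mutants. On HFD, Csf1r was 20.3, 29.9, 23.9 and 29.3 in controls and 24.5, 25.4, 24.4 and 30.3 in mutants. The receptor was thus nearly level within HFD, with group means of 25.9 ± 4.58 and 26.1 ± 2.78 (SD, n = 4).

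Cd68 on chow was 5.57, 8.92, 14.6 and 18.4 in controls and 17.9, 35.8, 11.8 and 11.3 in mutants. On HFD, Cd68 was 13.8, 15.1, 12.1 and 18.2 in controls and 13.8, 16.6, 12.6 and 17.9 in mutants. Mutant_Chow 2 alone exceeded every control on chow. Lyz2 on chow was 23.9, 37.9, 37.8 and 66.0 in controls and 210.0, 425, 44.9 and 36.8 in mutants. On HFD, Lyz2 was 47.3, 104, 51.7 and 48.6 in controls and 59.9, 47.8, 46.3 and 59.7 in mutants. Lyz2 had the largest range after Marco, 17.8-fold, and Mutant_Chow 1 and 2 lay above all other libraries.

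**Figure D1:**
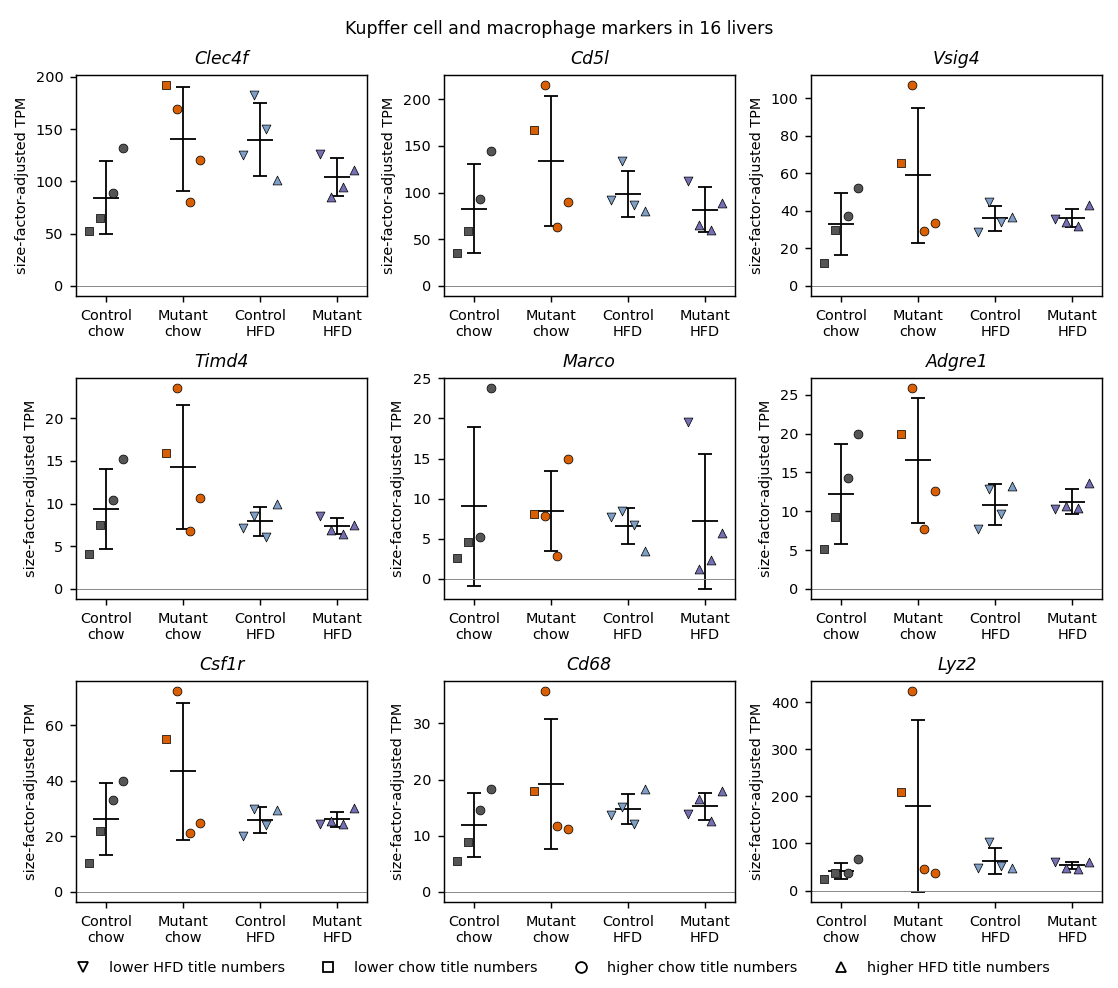
Value of each marker in each of the 16 livers, in size-factor-adjusted TPM on a linear axis, by group. Points are single livers, with the marker shape giving the number series of the library title, and the horizontal bar and whiskers are the group mean ± SD (n = 4). The orange points of Mutant_Chow 1 and 2 are the upper ones of their group in every panel but Marco. The HFD groups overlap and are mostly narrower than those on chow, but Marco in Mutant_HFD is wide (1.14 to 19.5).

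Spread was read as the coefficient of variation of a marker within a group. For the 8 markers other than Marco it ranged on chow from 35.5% (Clec4f in mutants) to 101.7% (Lyz2 in mutants). On HFD the same 8 ranged from 10.6% (Csf1r in mutants) to 43.7% (Lyz2 in controls). Marco had 109.9% in controls and 59.4% in mutants on chow, and 33.6% in controls and 118% in mutants on HFD. The difference in spread between diets was not tested. Control_Chow 1 was the lowest library for 8 of the 9 markers, Marco being the exception, and Mutant_Chow 2 was the highest for 7 of 9. In Control_Chow 1 the 7 markers of sinusoidal endothelium were also at their lowest summed level, 137 against 173 to 244 in the other libraries, as were the 6 of stellate cells (146 against 172 to 269). The 5 hepatocyte markers summed to 81510 there, in a range of 56491 to 98143 over all libraries. The part of these levels in the marker values was not tested.

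The first comparison asked how deletion of the receptor from part of the hypothalamus went with liver expression on chow. By limma's moderated test with Benjamini-Hochberg adjustment over all 12704 genes, 0 of 9 markers were called, where 0.0236% of all genes were. Lyz2 had a log2 fold change of 1.49 (SE 0.593, unadjusted p = 0.0238, adjusted p = 0.804) and Clec4f one of 0.74 (SE 0.293, unadjusted p = 0.0232, adjusted p = 0.804). These were the 2 of 9 markers at an unadjusted p under 0.05, against 6.08% of all genes. The other log2 fold changes were 0.80 for Vsig4, 0.72 for Cd5l, 0.68 for Csf1r, 0.62 for Cd68, 0.55 for Timd4, 0.43 for Adgre1 and 0.17 for Marco. The fitted difference of Marco was positive although its arithmetic mean was lower in mutants (8.41 against 9.04), so its direction depended on the scale. None of the 9 had groups without overlap, against 3.05% of all genes, and by the exact permutation test of 4 against 4, which cannot go below 0.0286, the smallest p was 0.143 for Clec4f.

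This comparison rested on Mutant_Chow 1 and 2 and, in part, on the low control Control_Chow 1. Leaving out Control_Chow 1 alone gave the lowest value of any single removal for Vsig4 (0.40), Cd5l (0.37), Csf1r (0.31) and Timd4 (0.26). It did so too for Adgre1 (0.11), Clec4f (0.54) and Marco (-0.19). For Lyz2 (0.84) and Cd68 (0.28) the lowest value came without Mutant_Chow 2. Without both Mutant_Chow 1 and 2, chosen after seeing the data, the median log2 fold change of the markers was 0.07. Clec4f was then 0.31 and Lyz2 0.07, while Adgre1 (-0.13) and Csf1r (-0.03) turned negative. The neutrophil markers S100a8, S100a9, Retnlg, Csf3r, Cxcr2 and Mmp8, 6 of the 7 listed, summed to 2511 and 5532 in these livers and to 23.8 and 87.4 in Mutant_Chow 3 and 4. In the other groups the neutrophil sum was 4.46 to 11.5 in Control_Chow, 7.74 to 25.4 in Control_HFD and 13.8 to 131 in Mutant_HFD, and Mmp8 was at 0 in 4 of those 12 libraries. The neutrophil marker S100a8 alone was 1079 and 2693 in Mutant_Chow 1 and 2, against 0.73 to 55.5 elsewhere. The 8 markers of monocytes and recruited macrophages summed to 132 and 293 in the same livers and to 6.04 to 17.0 in the other 14. Among them Chil3, the chitinase-like protein of monocytes, was 65.5 and 149 against 0.04 to 4.50, Ly6c2, the surface antigen of inflammatory monocytes, 47.9 and 92.2 against 2.62 to 5.59, and Ccr2, their chemokine receptor, 3.63 and 10.7 against 0.46 to 1.56. Since Lyz2 is also made by neutrophils and monocytes, and Csf1r and Cd68 by monocytes, these levels stand beside the marker values, and their part in the result was not tested. Clec4f, restricted to Kupffer cells in mice, was 192 and 169 in the same livers, against 52.4 to 183 in the other 14.

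On HFD the same question was asked in mice after 17 weeks of the diet. No marker was called (0 of 9, against 0.0157% of all genes), and 0 of 9 had an unadjusted p under 0.05, against 8.6% of all genes. Clec4f had a log2 fold change of -0.41 (SE 0.293, adjusted p = 0.657) and Cd5l one of -0.28. Marco was at -0.38, but its arithmetic mean was higher in mutants (7.16 against 6.57), so here too its direction depended on the scale. Lyz2 (-0.16), Timd4 (-0.08), Vsig4 (0.01), Csf1r (0.03), Cd68 (0.04) and Adgre1 (0.07) differed by less than their standard errors of 0.336 to 0.593. No marker was without overlap, against 2.69% of all genes. With weights that let variable libraries count less, 1 of the 9 markers passed, Clec4f at -0.66 (adjusted p = 0.0494), where that fit called 30.9% of all genes. Of the HFD libraries, Control_HFD 4 (0.228) and Mutant_HFD 1 (0.329) had the lowest weights, against 0.908 to 2.10 for the rest. These were the single control of the higher series and the single mutant of the lower series. The weighted fit thus set mainly lower-series controls against higher-series mutants, where genotype and series cannot be told apart. With the number series as a term Clec4f was -0.17 (adjusted p = 1.00). Within the lower series the single mutant, at 126, lay among the 3 controls (125 to 183), and within the higher series the single control, at 101, lay among the 3 mutants (84.9 to 110.4).

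**Figure D2:**
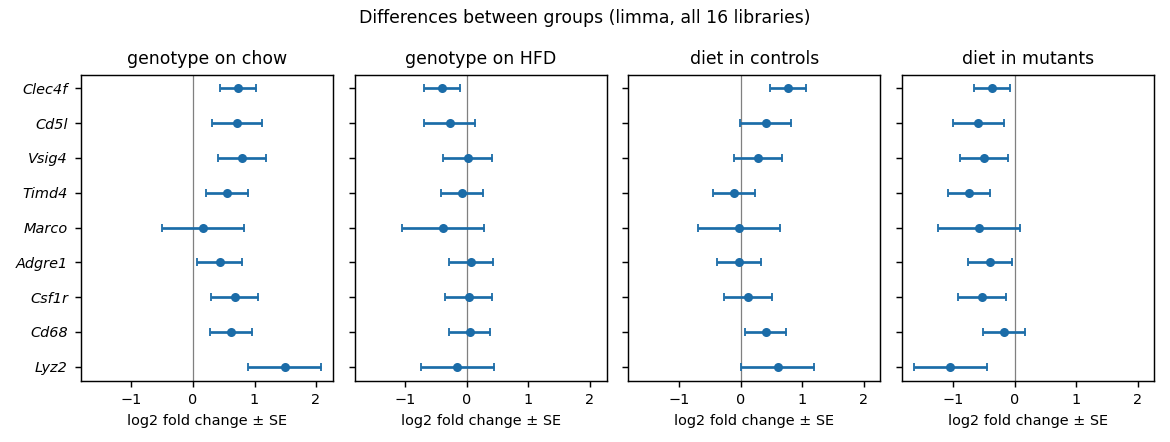
Log2 fold change ± SE of the 9 markers in the 4 comparisons of 2 groups, on the log2(value + 1) scale, mutant minus control or HFD minus chow. All 9 points are right of 0 for genotype on chow and left of 0 for diet in mutants, 2 comparisons that share the Mutant_Chow libraries, and no adjusted p passed 0.05.

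In controls, HFD was compared with chow. Clec4f had a log2 fold change of 0.77 (SE 0.293, unadjusted p = 0.0187, adjusted p = 0.300), from 84.6 on chow to 139.6 on HFD, and it was the 1 marker at an unadjusted p under 0.05, against 12.9% of all genes. The exact permutation p for Clec4f was 0.0857. Calls numbered 0 of 9 for the markers and 0% for all genes, and no marker was without overlap, against 6.36% of all genes. Lyz2 (0.60), Cd5l (0.40), Cd68 (0.40), Vsig4 (0.28), Csf1r (0.12), Marco (-0.03), Adgre1 (-0.04) and Timd4 (-0.11) had unadjusted p of 0.256 to 0.964 by limma. Csf1r had an arithmetic mean that was lower on HFD (25.9 against 26.3), opposite to its fitted sign. In the fit with library weights, Control_HFD 4, the control of the higher title series, had the lowest weight of all libraries (0.228). With these weights, Clec4f was 0.93 (adjusted p = 0.0248) and the 1 marker of 9 called, where that fit called 17.8% of all genes. Leaving out 1 library at a time, it stayed between 0.57 and 1.01. Of the 4 control livers on HFD, the 3 of the lower title series were at 125 to 183 and the 1 of the higher series at 101, and no liver on chow belonged to either series, so diet and series cannot be told apart here.

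In mutants, all 9 markers were lower on HFD than on chow, with a median log2 fold change of -0.54, and 0 of 9 were called, as were 0% of all genes. Timd4 was the 1 marker at an unadjusted p under 0.05 (-0.75, SE 0.336, unadjusted p = 0.0422, adjusted p = 0.722), against 6.86% of all genes. The other log2 fold changes were -1.05 for Lyz2, -0.59 for Cd5l, -0.58 for Marco, -0.54 for Csf1r, -0.50 for Vsig4, -0.40 for Adgre1, -0.37 for Clec4f and -0.18 for Cd68. No marker was without overlap, against 3.53% of all genes. Without Mutant_Chow 1 and 2 the median was 0.16, and 7 of the 9 markers changed sign. This comparison and that of genotype on chow share the Mutant_Chow libraries. As in controls, no liver on chow belonged to an HFD title series, so diet and series cannot be told apart in any comparison of diet.

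The test of whether the genotype difference itself differed between diets gave a negative interaction for all 9 markers, with a median log2 value of -0.65. Only Clec4f had an unadjusted p under 0.05 (-1.14, SE 0.414, unadjusted p = 0.0142, adjusted p = 0.895), against 4.21% of all genes, and 0 of 9 markers and 0% of all genes were called. Its genotype difference was 0.74 on chow and -0.41 on HFD. Without Mutant_Chow 1 and 2 the interaction of Clec4f was -0.71 and the median of the markers -0.09. Averaged over both diets, 0 of 9 markers were called for genotype, against 0.063% of all genes, with 0 at an unadjusted p under 0.05, against 8.98%. Averaged over both genotypes, 0 of 9 were called for diet, against 0.134% of all genes, with 0 at an unadjusted p under 0.05, against 14.1%.

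Further genes of the Kupffer cell programme, and a mixed list that includes Csf1, were read from lists. Of 12 Kupffer identity genes, 0 were called in any comparison of genotype or diet. Between the HFD title series, where 25.2% of all genes passed by limma, the complement gene C1qa did (-1.09, higher minus lower, adjusted p = 0.0421). On chow all 12 were higher in mutants by the fitted difference, with a median log2 fold change of 0.53. The folate receptor gene Folr2 had the smallest unadjusted p (0.89, SE 0.372, unadjusted p = 0.0304, adjusted p = 0.804), followed by the iron exporter Slc40a1 (0.40) and the transcriptional regulator Id3 (0.82). Folr2 was 50.7 and 48.3 in Mutant_Chow 1 and 2 and between 6.94 and 27.8 in the other 14 libraries. On HFD the 12 had a median of -0.09, and the haemoglobin scavenger receptor Cd163 had the smallest p (0.64, SE 0.359, adjusted p = 0.597). Cd163 was 12.7 to 13.0 in Mutant_HFD 2 to 4 and 5.99 in Mutant_HFD 1, against 4.57 to 6.78 in Control_HFD 1 to 3 and 8.65 in Control_HFD 4, so the low values were those of the lower title series. In the CSF1 pathway, 0 of 8 genes were called. On chow the growth factor Csf1 itself had the smallest p, at 0.64 (SE 0.260, unadjusted p = 0.0257, adjusted p = 0.804), with 10.4 and 18.0 in Mutant_Chow 1 and 2 and 4.64 to 8.81 elsewhere. Gas6 (0.86) and the cytokine receptor subunit Csf2rb (0.74) followed. Among 16 genes found in macrophages of all tissues, 0 were called. On chow the oxidase subunit Cybb (1.12), the integrin chain Itgb2 (1.05) and the scavenger receptor Msr1 (0.79) had the smallest p. Cybb was 18.5 and 37.7 in Mutant_Chow 1 and 2, against 5.68 and 5.97 in Mutant_Chow 3 and 4. In the same order, Itgb2 was 17.2 and 28.5 against 3.96 and 5.91, and Msr1 was 19.26 and 24.03 against 10.91 and 13.38. Mutant_Chow 1 and 2 were the livers with the high neutrophil sums, whose part in these values was not tested.

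Genes of lipid-associated macrophages, which gather in fatty livers, were also read. Of 8 tested, 0 were called. Diet in controls gave the smallest p for Trem2, a lipid-sensing receptor, at a log2 fold change of 0.86 (SE 0.221, unadjusted p = 0.00132, adjusted p = 0.188). Trem2 was 3.83, 4.28, 5.57 and 4.93 in Control_Chow and 8.86, 13.6, 7.50 and 7.93 in Control_HFD, without overlap, as for 6.36% of all genes. In Mutant_HFD, Trem2 was 11.8 in the library of the lower title series and 4.94 to 6.34 in the 3 of the higher series, against 4.40 to 6.04 in Mutant_Chow. The elastase Mmp12 was low in every library (0.43 to 6.28) and had log2 fold changes with diet of 0.97 in controls (adjusted p = 0.280) and 1.09 in mutants (adjusted p = 0.623). In the livers with the high marker values, Mutant_Chow 1 and 2, Trem2 was 4.96 and 6.04, close to its values in the other chow livers (3.83 to 5.57). Other genes of the list moved there. Lgals3 was 25.3 and 44.4 in these 2 livers, against 4.99 to 12.4 in the other chow livers. Mmp12 went the other way, at 0.45 and 0.43 against 0.51 to 1.24. By mean z-score of log2(value + 1) over the 16 libraries, the list stood at 0.498 and 1.275, against -0.947 to -0.178. Of the 4 tested cytokine genes, 0 were called, and Il1b had the smallest p with diet in controls (-0.71, SE 0.261, unadjusted p = 0.015, adjusted p = 0.292) and in mutants (-0.66, adjusted p = 0.687). In the lists of sinusoidal endothelium, stellate cells, cholangiocytes, neutrophils, monocytes, T and NK cells, B cells, dendritic cells, red cells and hepatocytes, 0 genes were called in any comparison of genotype or diet. On chow the 7 sinusoidal markers had a median log2 fold change of 0.14 and the 6 stellate cell markers one of 0.03, against 4.78 for the 4 tested neutrophil markers and 0.94 for the 6 tested monocyte markers.

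**Figure D3:**
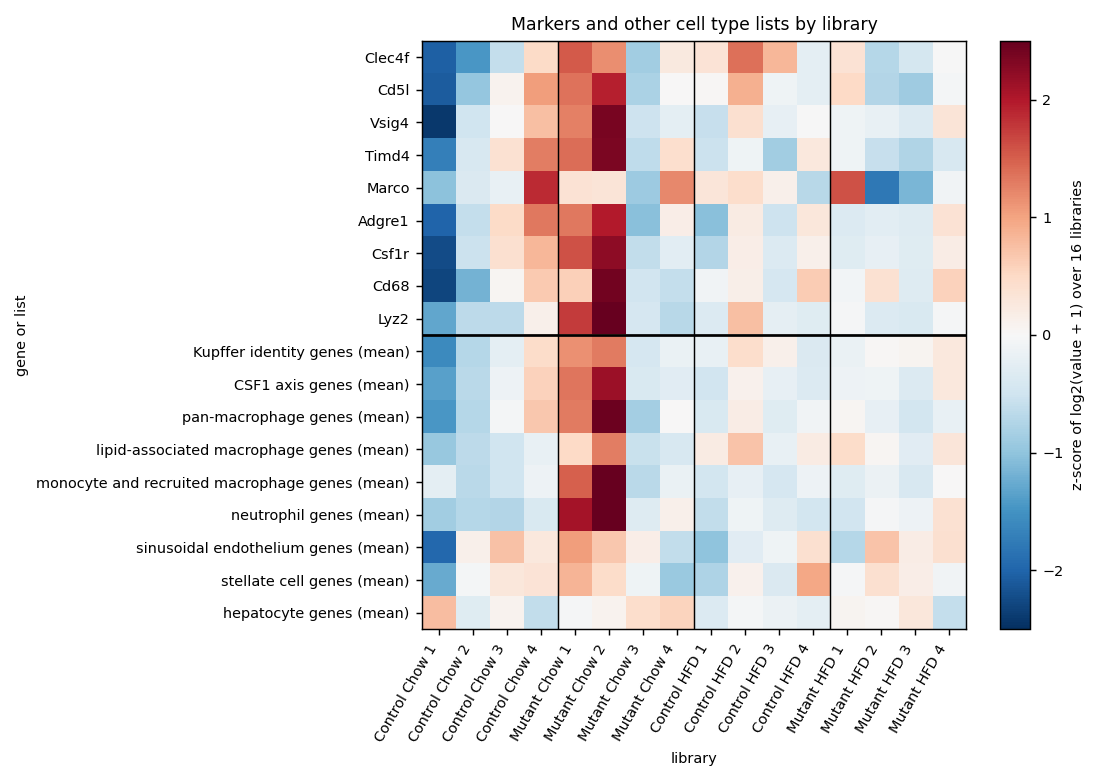
z-score of log2(value + 1) over the 16 libraries for the 9 markers (above the line) and the mean z-score of the genes of 9 other lists (below), with libraries in columns and groups separated by vertical lines. Mutant_Chow 2 has the highest z-score for 7 markers, Control_Chow 1 the lowest for 8 markers and for sinusoidal endothelium (-1.97), and the hepatocyte row stays between -0.62 and 0.77.

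Between livers the markers varied together. Over the 36 pairs of markers and 16 libraries, Pearson's r of log2(value + 1) ranged from 0.25 to 0.98 with a median of 0.82, and Spearman's rho had a median of 0.75. The median was 0.83 when each group was centred on its mean and 0.90 when each number series was. Without the 2 libraries farthest from the median of the first gene of a pair, it was 0.67. Within the 8 chow libraries the median was 0.91, and within the 8 HFD libraries it was 0.47, where values spanned a narrower range. All genes of a library share its composition, so these coefficients describe the libraries and are no measure of control of one gene by another.

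Vsig4 and Csf1r were the closest pair (r = 0.98, rho = 0.97, each with permutation p = 1e-05, the smallest that 100000 permutations can give, and adjusted p of 3e-05 and 0.00012 over the 36 pairs). It held at 0.96 without the 2 farthest libraries, 0.99 within chow and 0.92 within HFD. Adgre1 and Csf1r followed (r = 0.97, rho = 0.99), with 0.94 without the 2 farthest libraries and 0.99 within HFD. Vsig4 stayed between 1.13 and 1.49 times the level of Csf1r in all 16 livers. Clec4f and Cd5l were close in both diets (0.95 on chow and 0.86 on HFD). Clec4f and Csf1r had r = 0.91 within chow and 0.07 within HFD, and Clec4f and Cd68 had 0.85 within chow and -0.35 within HFD. Marco had the lowest median coefficient with the other 8 (0.42), and its pair with Cd68 was the lowest of all (r = 0.25, permutation p = 0.352, and rho = 0.31, permutation p = 0.237). On HFD, Marco went with Cd5l (0.84) and Clec4f (0.71) but not with Csf1r (-0.11).

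**Figure D4:**
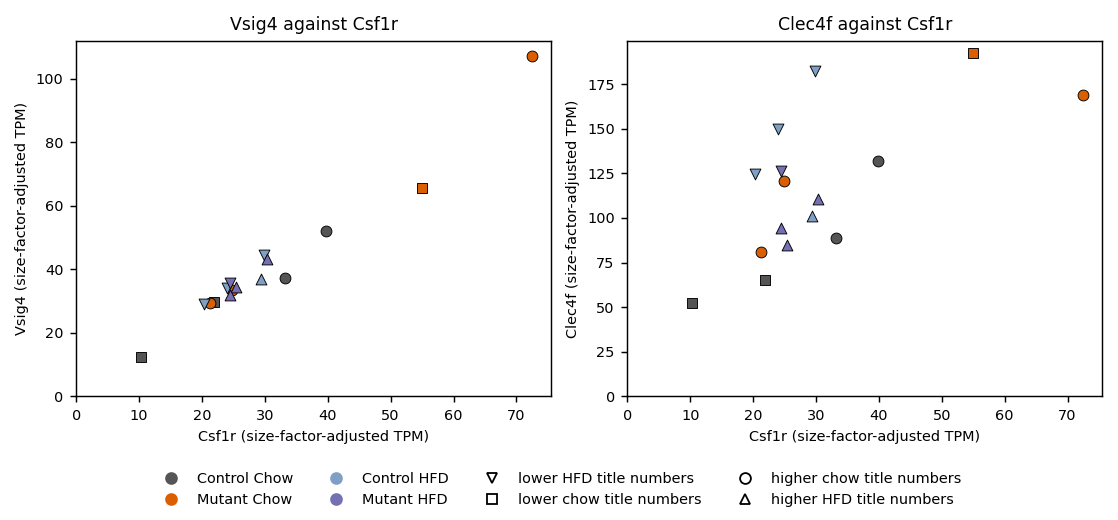
Vsig4 (left) and Clec4f (right) against Csf1r in the 16 livers, in size-factor-adjusted TPM on linear axes from 0. Colours give the groups and shapes the number series. Vsig4 lies on a line through all livers, while for Clec4f the 4 HFD libraries of the lower title series (downward triangles) lie above the 4 of the higher series (upward triangles).

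On HFD the level of Clec4f relative to Csf1r followed the title series, a ratio chosen after its values were seen and given without a test. It was 5.15 to 6.26 in the 4 libraries of the lower series, mean 5.92 ± 0.516 (SD, n = 4), and 3.34 to 3.85 in the 4 of the higher series, mean 3.57 ± 0.224. The single mutant of the lower series and the single control of the higher series sat with their series, at 5.15 and 3.45. On chow the ratio was 2.33 to 5.09. Cd5l relative to Csf1r was 3.61 to 4.61 in the lower and 2.47 to 2.92 in the higher HFD series. In the fit with the series as a term, Marco had the largest series difference of the markers on HFD (-1.73, SE 0.637, unadjusted p = 0.0178, adjusted p = 0.0639), higher minus lower, and Clec4f had -0.48 (adjusted p = 0.313). Lyz2 relative to Csf1r was 3.82 and 5.86 in Mutant_Chow 1 and 2 and 1.14 to 3.48 in the other libraries.

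The genes outside the markers with the pattern most like Clec4f over the 16 libraries were C1qc (Pearson's r = 0.93) and C1qb (0.93), which encode chains of the complement component C1q, Unc93b1 (0.92), which carries Toll-like receptors to endosomes, Cd300c2 (0.89), a myeloid surface receptor, and Folr2 (0.89). Those most like Cd68 were Xdh (0.94), the xanthine dehydrogenase, Cybb (0.92), a subunit of the phagocyte oxidase, Abcg3 (0.92), Lgmn (0.90), a lysosomal protease, and Slc44a2 (0.90), a choline transporter-like protein. Counted among all tested genes, Cd5l was at rank 4 and Vsig4 at rank 78 by the same measure for Clec4f, and Vsig4 was at rank 2 for Cd68. Abcg3 and Cd300c2 are low, with means of 2.41 and 4.61. Both sets were picked as the highest of all tested genes, so the coefficients are a description.

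Lyz2 has a close copy, Lyz1, to which reads could be shared. The GENCODE M21 transcripts compared were 95.96% identical over 1262 aligned bases, with 51 mismatches. Lyz1 had no row among the 15544 genes and could not be read here. The Lyz2 values are uncertain to the extent that reads of the pair were split by estimation. Csf1r overlaps Hmgxb3, annotated on the opposite strand, and whether reads were assigned by strand is not given in the sources used here. The markers lie on 8 chromosomes of GRCm38 (GENCODE M21), with Cd68 and Timd4 both on chromosome 11 and far apart, at 69664213 to 69666153 and 46810800 to 46844332. Adgre1 lies on chromosome 17 from 57358691 to 57483527, Clec4f on chromosome 6 from 83644542 to 83656187, Vsig4 on chromosome X from 96247203 to 96293438, Cd5l on chromosome 3 from 87357881 to 87371073, Marco on chromosome 1 from 120474538 to 120505024 and Lyz2 on chromosome 10 from 117277331 to 117282321.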

How the data were processed

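Bulk RNA sequencing of liver gave 1 library per mouse, 16 in all. The authors assigned reads with kallisto in gene mode (mm10) and used sleuth, per the labels and the study's methods. Versions, annotation release and filter are not given in the sources used here. What the authors deposited is, for each gene, a signal scaled like TPM and adjusted with size factors. This scale was inferred from column totals of 905897 to 1119703. Depth is therefore unknown, no counting interval was computed, and precision rests on the 4 mice per group.

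Groups came from the genotype and treatment labels. The 9 markers and all lists were chosen with earlier results of these data known. The filter kept genes that reached 1 in 4 libraries (12704 of 15544). limma 3.58.1 (R 4.3.3) with a variance trend was run on log2(value + 1) in 1 fit of 4 group means without covariates, with Benjamini-Hochberg adjustment over all tested genes and a threshold of 0.05. The log2 scale with a pseudocount of 1 understates changes of low genes. Members were also compared by the exact two-sided permutation test (smallest p 0.0286, 36 tests), and correlations by 100000 permutations. The script was tested on simulated data.

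By rule, every marker was named in the comparisons of 2 groups, markers at an unadjusted p under 0.05 in the others, at most 3 genes by smallest p of each other list, and the 5 genes most like Clec4f and Cd68. Ratios, and the libraries singled out, were chosen after their values were seen. Promoters came from RefSeq (7 of 9 markers matched), positions from GENCODE M21. Alternatives were a pseudocount of 0.1, no filter, a filter at 5, median-of-ratios scaling, rescaling to a common total, library weights, only the groups compared, the title number series as a term, leaving out each library, and, added after seeing the data, leaving out Mutant_Chow 1 and 2.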

Additional observations from a re-analysis of the deposited data

Results flagged for a closer look

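In 36 groups of 4 values (9 markers in 4 groups), 4 values in 3 libraries lay further from the rest than a gap of 0.829 of the group's range, a limit that chance passes in about 5% of groups. Marco was 23.9 in Control_Chow 4, where the other 3 controls on chow were at 2.56 to 5.22. Lyz2 was 104 in Control_HFD 2, where the other 3 were at 47.3 to 51.7. In Mutant_HFD 4, Adgre1 was 13.6 and Csf1r 30.3, where the other 3 mutants on HFD were at 10.3 to 10.6 and 24.4 to 25.4. The high values of Lyz2, Vsig4 and Csf1r in Mutant_Chow 1 and 2 did not pass this limit, since 2 libraries of 4 were high.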

How the results depend on the processing

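Calls of markers stayed at 0 of 9 under the alternatives, except that library weights gave 1 call for genotype on HFD and 1 for diet in controls, both Clec4f (-0.66 and 0.93). Those fits called 30.9% and 17.8% of all genes, against 0.0157% and 0% without weights, so 1 of 9 was below the share over all genes. The lowest weights were those of Control_HFD 4 (0.228) and Mutant_HFD 1 (0.329), each the only library of its genotype in its title series. Of 600 alternative values for 37 results, 551 kept direction and side of the threshold and 47, in 22 results, changed sign. For genotype on HFD, the number series as a term gave -0.07 for Adgre1, -0.10 for Cd68, -0.07 for Csf1r, 0.48 for Marco and -0.01 for Vsig4. Vsig4 was -0.01 with median-of-ratios scaling and -0.05 with library weights. For genotype on chow the series term gave -0.03 for Marco. For diet in controls, Marco was 0.01 with a pseudocount of 0.1 and 0.18 with library weights, and Csf1r was -0.05 after rescaling to a common total. Cd68 for diet in mutants was 0.13 with library weights.

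Without Mutant_Chow 1 and 2 (added after seeing the data), the median of the markers was 0.07 for genotype on chow and 0.16 for diet in mutants. Adgre1 (-0.13) and Csf1r (-0.03) changed sign on chow, as did Adgre1 (0.16), Clec4f (0.06), Cd5l (0.06), Cd68 (0.36), Csf1r (0.17), Vsig4 (0.19) and Lyz2 (0.38) for diet in mutants.

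Leaving out 1 library at a time, log2 fold changes that crossed 0 ranged, for genotype on HFD, from -0.07 to 0.17 for Adgre1, -0.04 to 0.14 for Cd68, -0.08 to 0.10 for Csf1r, -0.27 to 0.11 for Lyz2, -1.01 to 0.08 for Marco, -0.18 to 0.03 for Timd4 and -0.09 to 0.12 for Vsig4. For diet in controls they ranged from -0.36 to 0.23 for Adgre1, -0.26 to 0.36 for Csf1r, -0.38 to 0.55 for Marco, -0.41 to 0.14 for Timd4 and -0.11 to 0.55 for Vsig4. Marco for genotype on chow ranged from -0.19 to 0.75, and Cd68 for diet in mutants from -0.37 to 0.16. The cause of these changes was not tested. Unknown depth limits what the lowest markers, Marco and Timd4, can show.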
